A study of Homo sapiens with 12 samples.

Results

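The 10 genes described here are the Notch receptors NOTCH1, NOTCH2 and NOTCH3, the ligand JAG1, the transcriptional targets HEY1, HEY2, HEYL, HES1 and HES4, and the feedback inhibitor NRARP. They were chosen by gene symbol, with earlier results of these data known, and all 10 are among the 27106 genes of the deposited table. Polyadenylated RNA was sequenced from IMR90 human lung fibroblasts that carry the telomerase gene hTERT and an oncogenic Ras fused to a tamoxifen-responsive receptor domain (RasERT2). The 6 groups, of 2 libraries each, were cells with a hairpin against the interleukin-1 receptor (shIL1R) and cells with a scramble hairpin (shScr), each at days 0, 4 and 10 of Ras induction. Hairpins were induced with 0.5 ug/ml doxycycline in all groups, and the cells then received 200 nM tamoxifen or, as the control, ethanol. Day 0 cells were growing, day 4 is described as the start of secretory factor induction and day 10 as senescent.

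All groups share the hTERT gene and the RasERT2 fusion, so day 0 is not an untreated primary fibroblast. Each shIL1R library carries a hairpin from a pair of independent hairpins, but the labels do not tie the numbers 1 and 2 to a hairpin, a culture or a clone. The p-values below therefore measure only the spread between these libraries, which may be technical.

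Notch receptors are cut in the membrane when a ligand on a neighbouring cell pulls on them, and the freed intracellular domain enters the nucleus. There it joins the DNA-binding protein RBPJ and a Mastermind coactivator (MAML) and switches on genes such as those of the HES and HEY families, which encode repressors of transcription. NRARP, another target, promotes loss of the intracellular domain. In fibroblasts driven into senescence by Ras, NOTCH1 is known for a transient activity that restrains the secretion of inflammatory factors, and JAG1 for relaying the signal to neighbours.

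Values are normalized counts, that is reads divided by a size factor of the library. Libraries held 24140324 to 30127727 recovered reads, and 1 read was worth 0.834 to 1.20 normalized counts. All 12 fibroblast markers examined had at least 10 normalized counts in every library, while CDH5 of the endothelial list, CD3E of the leukocyte list and KRT5 and KRT14 of the epithelial list were at 0 in all 12. Other genes of those lists were present, with KRT18 at 1717 to 3014 normalized counts and CD68 at 2839 to 8920, and LAPTM5 had 37.2 and 6.77 in shIL1R cells and 142 and 120 in shScr cells at day 10, against 0 to 3.59 at day 0. IL1R1, a gene for the interleukin-1 receptor, had 731 and 378 normalized counts in shIL1R cells on day 0, 272 and 86.4 on day 4 and 295 and 280 on day 10, below the 1240 to 1580 of all shScr libraries. Its shIL1R against shScr log2 fold change was −1.54 on day 0, −3.27 on day 4 and −2.28 on day 10 (limma adjusted p = 0.281, 0.0205 and 0.0102). Among the day 10 libraries, replicate 2 of shIL1R stood apart, at 45.9 on the first principal component against 77.2 for replicate 1 of shIL1R and 89.2 and 90.5 for the shScr libraries.

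Of the 10 genes, 8 reached 10 normalized counts in 2 or more libraries, the filter used, and HEY2 and NRARP did not. Log2 fold changes refer to log2(normalized count + 1), come with a standard error (SE), and were tested with limma across all 13924 genes that passed, a gene being called at an adjusted p below 0.05. Bulk RNA cannot tell fewer cells of a kind from less RNA per cell.

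**Figure D1:**
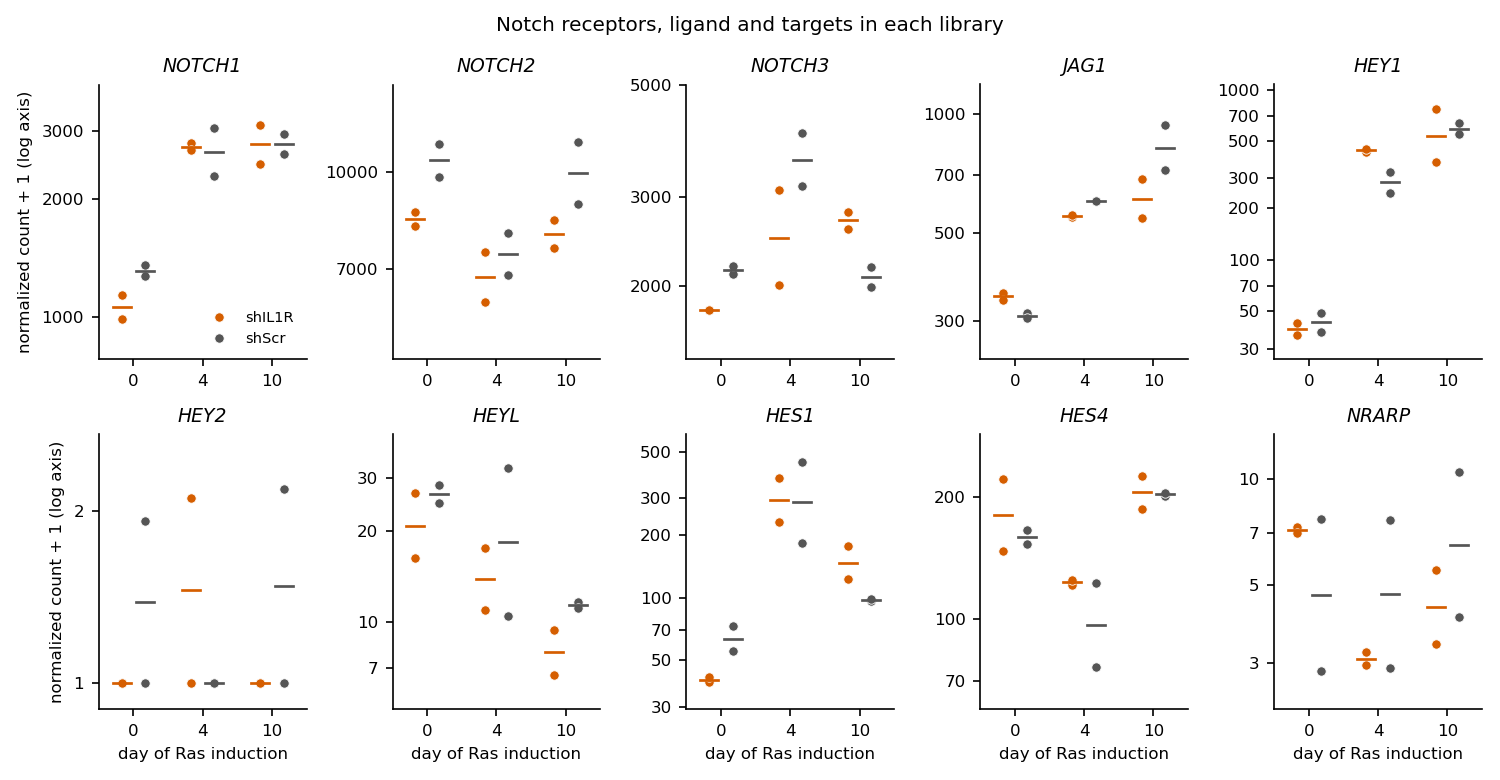
Normalized counts + 1 of the 10 genes on log axes that differ between panels, by day of Ras induction, with shIL1R libraries in orange to the left of shScr libraries in grey. Each point is a library and each bar the geometric mean of 2 libraries. HEY1 sits between 35.3 and 47.6 normalized counts at day 0 and between 375 and 765 at day 10, while HES1 is highest at day 4.

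NOTCH1 rose at day 4 and stayed high. NOTCH2 was lowest at day 4 with either hairpin, a fall called in shScr cells alone, and NOTCH3 peaked at day 4 in shScr cells. NOTCH1 had 1134 and 989 normalized counts in shIL1R cells on day 0, 2786 and 2678 on day 4 and 3101 and 2468 on day 10. Its shScr values were 1273 and 1355 on day 0, 3050 and 2295 on day 4 and 2610 and 2942 on day 10. Every day 4 and day 10 library lay above every day 0 library, whatever the hairpin. At day 4 against day 0 the log2 fold change was 1.37 ± 0.14 in shIL1R cells and 1.01 ± 0.14 in shScr cells (SE, limma adjusted p = 5.65e-05 and 0.000308). From day 0 to day 10 it was 1.38 ± 0.14 in shIL1R cells and 1.08 ± 0.14 in shScr cells (SE, limma adjusted p = 1.11e-05 and 6.11e-05), a rise of 2.61-fold and 2.11-fold. Between day 10 and day 4 the libraries overlapped, with log2 fold changes of 0.02 in shIL1R cells and 0.07 in shScr cells that were not called.

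NOTCH2, a receptor closely related to NOTCH1, had 8182 and 8616 normalized counts in shIL1R cells on day 0, 6197 and 7443 on day 4 and 8354 and 7546 on day 10. The shScr libraries held 9816 and 11066 on day 0, 7984 and 6844 on day 4 and 8873 and 11141 on day 10. The day 4 libraries of each hairpin were below their day 0 and day 10 libraries, and the day 10 and day 0 libraries overlapped. NOTCH2 fell by 0.50 ± 0.13 on the log2 scale at day 4 against day 0 in shScr cells (SE, limma adjusted p = 0.0118), with −0.31 ± 0.13 in shIL1R cells (0.0831). It rose in shScr cells by 0.43 ± 0.13 (SE, limma adjusted p = 0.0209) at day 10 against day 4. Neither call held if replicate 2 of shScr day 4 was left out (0.0954 and 0.154). The first was also lost without replicate 2 of shScr day 0 (0.0996), and the second, then 0.26, without replicate 2 of shScr day 10 (0.181). The table also lists NOTCH2NL, a near-identical partial copy, so reads may be split between the copies and the NOTCH2 counts are uncertain.

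NOTCH3, the receptor best known from vascular smooth muscle and pericytes, had 1789 and 1786 normalized counts in shIL1R cells on day 0, 3096 and 2004 on day 4 and 2805 and 2590 on day 10. With the scramble hairpin the counts were 2106 and 2190 on day 0, 4011 and 3146 on day 4 and 2182 and 1992 on day 10. In shScr cells only the day 4 libraries stood above the others, whereas in shIL1R cells all libraries of days 4 and 10 stood above those of day 0. NOTCH3 rose at day 4 against day 0 by 0.48 ± 0.17 in shIL1R cells and by 0.73 ± 0.17 in shScr cells (SE, limma adjusted p = 0.0448 and 0.00666). For day 10 over day 0 it rose by 0.59 ± 0.17 in shIL1R cells (SE, limma adjusted p = 0.0112), with −0.04 in shScr cells. For day 10 over day 4 it fell by 0.77 ± 0.17 in shScr cells (SE, limma adjusted p = 0.00419), with 0.11 in shIL1R cells. The shIL1R call at day 4 did not hold when any of 7 libraries was left out (limma adjusted p = 0.0589 to 0.399), namely replicate 1 of shIL1R day 4, which took the fold change to 0.17, or either library of shIL1R day 0, shScr day 0 or shScr day 10. The shScr call at day 4 was lost without replicate 1 of shScr day 4 (limma adjusted p = 0.0701). Markers of smooth muscle and pericytes, which also express NOTCH3, moved in both directions at day 10 against day 0. Of the 8, 0 were higher and 2 lower in shIL1R cells and 2 were higher and 2 lower in shScr cells, where 60.3% and 63.8% of all tested genes were called. TAGLN and CNN1 fell with either hairpin, while RGS5 and ACTA2 rose in shScr cells, by 2.46 and 0.66 (limma adjusted p = 0.000398 and 0.00256). The summed level of the 8 was 24482 to 27814 normalized counts in shIL1R cells at day 10 and 38990 to 40879 at day 0, and in shScr cells 24744 to 27244 and 36862 to 39625. Their part in the NOTCH3 values was not tested.

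On a scale that allows genes to be compared, normalized counts per kb of the longest coding transcript in GENCODE v29, NOTCH2 was the most abundant receptor in every library, at 544 to 978. At day 0, NOTCH3 followed with 206 in both shIL1R libraries and 243 to 253 in shScr cells, above NOTCH1 with 106 to 122 in shIL1R cells and 137 to 146 in shScr cells. At day 10 NOTCH1 had 265 to 333 per kb and NOTCH3 had 299 to 324 in shIL1R cells, ranges that overlap. In shScr cells at day 10 NOTCH1, at 280 to 316, stood above NOTCH3, at 230 to 252. In shScr cells the order of these 2 receptors at day 10 was thus the reverse of that at day 0, and whether the hairpins differ in this was not tested. Within a library, the ratio of NOTCH2 to NOTCH1 reads was 7.21 to 8.71 on day 0, 2.22 to 2.98 on day 4 and 2.69 to 3.79 on day 10 over both hairpins.

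**Figure D2:**
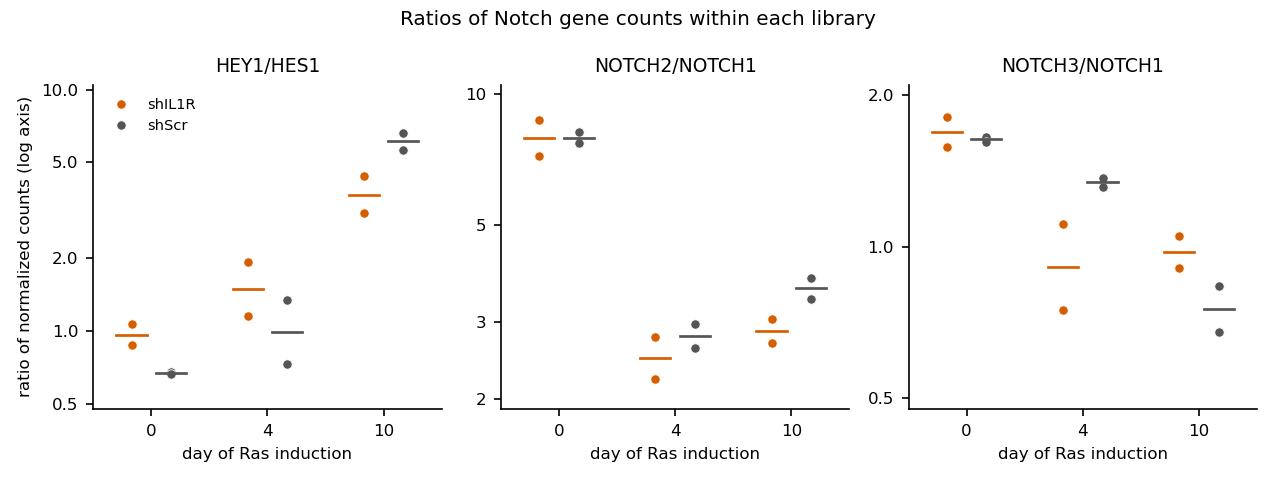
Ratios of reads of a pair of genes within each library, on log axes, by day of Ras induction, with shIL1R in orange to the left of shScr in grey and bars at the geometric mean of 2 libraries. The ratio of HEY1 to HES1 is 0.663 to 1.07 at day 0 and 3.07 to 6.62 at day 10.

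JAG1, a ligand that presents Notch signals to neighbouring cells, rose in both kinds of cells and went on rising to day 10 in shScr cells. It had 353 and 338 normalized counts in shIL1R cells on day 0, 547 and 555 on day 4 and 683 and 544 on day 10. The matching shScr counts were 313 and 304 on day 0, 603 and 601 on day 4 and 722 and 935 on day 10. All libraries of days 4 and 10 exceeded all libraries of day 0. JAG1 rose at day 10 against day 0 by 0.82 ± 0.14 in shIL1R cells and by 1.41 ± 0.14 in shScr cells (SE, limma adjusted p = 0.000412 and 6.03e-06). At day 4 against day 0 the rise was 0.67 ± 0.14 in shIL1R cells and 0.96 ± 0.14 in shScr cells (SE, limma adjusted p = 0.00315 and 0.000334). Between day 4 and day 10 it rose by 0.45 ± 0.14 in shScr cells (SE, limma adjusted p = 0.0223), with 0.15 in shIL1R cells, where the libraries overlapped. The later rise in shScr cells was not called without either library of shScr day 4 (0.0816 and 0.0871) or without replicate 2 of shScr day 10, which left 0.26 (0.198).

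Among the targets, HES1, HES4 and HEYL moved in different directions, and their promoters are shown because they hold the core letters bound by RBPJ. The windows run from 250 bases before to 50 after the RefSeq start (GRCh38.p14), read along the gene, at chr3:194135898-194136197 on the plus strand for HES1, chr1:1000048-1000347 on the minus strand for HES4 and chr1:39639594-39639893 on the minus strand for HEYL. Capitals mark TGGGAA on either strand.
HES1: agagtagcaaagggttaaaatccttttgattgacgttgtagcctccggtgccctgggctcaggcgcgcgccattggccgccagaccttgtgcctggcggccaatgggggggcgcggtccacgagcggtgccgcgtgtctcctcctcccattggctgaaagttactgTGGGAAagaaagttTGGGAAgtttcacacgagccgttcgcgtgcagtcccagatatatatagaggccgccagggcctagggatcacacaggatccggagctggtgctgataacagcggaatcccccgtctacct
HES4: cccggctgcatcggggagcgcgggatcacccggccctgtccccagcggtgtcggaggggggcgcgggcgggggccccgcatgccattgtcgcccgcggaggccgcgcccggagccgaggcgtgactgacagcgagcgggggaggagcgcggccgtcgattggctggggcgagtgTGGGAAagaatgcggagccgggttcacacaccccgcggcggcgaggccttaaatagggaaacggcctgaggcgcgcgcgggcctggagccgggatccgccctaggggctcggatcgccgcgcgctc
HEYL: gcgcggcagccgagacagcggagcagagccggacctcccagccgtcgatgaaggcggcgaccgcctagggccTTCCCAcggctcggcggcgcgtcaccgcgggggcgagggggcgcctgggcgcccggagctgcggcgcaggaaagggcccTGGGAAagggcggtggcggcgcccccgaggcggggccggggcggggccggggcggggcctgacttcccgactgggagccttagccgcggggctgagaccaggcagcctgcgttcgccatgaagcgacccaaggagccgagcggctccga
HES1 held 2 such matches, at −84 and −70 from the start. HES4 held 1, at −76, and HEYL held 2, at −178 on the opposite strand and at −99. TGGGAA occurred in 24% of 35116 RefSeq promoters of this length, and in 4 of the 9 genes with an entry, the other being HEY2 with 2 matches. HEY1 had no entry, so its promoter was not searched. The longer GTGGGAA, which contains TGGGAA, was in the same 4 promoters and in 6.25% of all. The letters CACNAG, a site known to be bound by HES repressors, occurred on either strand in 38% of all promoters, with at least 2 matches in 8.94%. HES1, a gene known to repress its own transcription, held 4 of them, while NOTCH2, NOTCH3 and NRARP held 1 each. NOTCH1 held 2, but these overlap on opposite strands. These matches describe the letters in a window and were not tested for binding.

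HEY1, a repressor induced by Notch and also by other signals, had the largest log2 fold changes from day 0 among the 8 tested genes. HEY1 had 41.3 and 35.3 normalized counts in shIL1R cells on day 0, 431 and 446 on day 4 and 765 and 375 on day 10. shScr cells gave 36.7 and 47.6 on day 0, 327 and 245 on day 4 and 632 and 547 on day 10. No later library came near the day 0 range, and in shIL1R cells the day 10 libraries spanned those of day 4. At day 4 against day 0 HEY1 rose by 3.49 ± 0.28 in shIL1R cells and by 2.73 ± 0.28 in shScr cells (SE, limma adjusted p = 1.27e-05 and 4.25e-05). By day 10 the rise over day 0 was 3.78 ± 0.28 with either hairpin (SE, limma adjusted p = 1.06e-06 in shIL1R cells and 7.42e-07 in shScr cells), or 13.7-fold and 13.8-fold. From day 4 to day 10 HEY1 rose by 1.05 ± 0.28 in shScr cells (SE, limma adjusted p = 0.0115), with 0.29 in shIL1R cells. That later rise was not called with replicate 2 of shScr day 4 left out (0.0912), nor with replicate 1 of shScr day 10 (0.0733).

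HES1, a repressor that is a classic Notch target, rose by day 4 and was lower again by day 10, a fall called in shScr cells alone. HES1 had 38.6 and 40.5 normalized counts in shIL1R cells on day 0, 372 and 230 on day 4 and 175 and 122 on day 10. Its shScr values were 54.2 and 71.8 on day 0, 446 and 183 on day 4 and 95.6 and 97.2 on day 10. The 3 days did not overlap within either hairpin, day 4 being highest and day 0 lowest, although the day 4 libraries of a hairpin lay far apart. HES1 rose at day 4 against day 0 by 2.86 ± 0.37 in shIL1R cells and by 2.18 ± 0.37 in shScr cells (SE, limma adjusted p = 0.000193 and 0.000913). By day 10 it was still above day 0, up by 1.86 ± 0.37 in shIL1R cells (SE, limma adjusted p = 0.00117), with 0.62 ± 0.37 in shScr cells (0.162, and 0.0274 when the compared groups were fitted alone). From day 4 to day 10 HES1 fell by 1.56 ± 0.37 in shScr cells (SE, limma adjusted p = 0.00583), with −0.998 ± 0.37 in shIL1R cells (0.0550). Without replicate 1 of shScr day 4 the shScr value was −0.92 and missed the threshold (0.0531), and without either shScr day 4 library or replicate 1 of shIL1R day 10 the shIL1R value passed it (0.0159 to 0.0429).

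The ratio of HEY1 to HES1 reads within a library put these time courses side by side. It was 1.07 and 0.872 in shIL1R cells on day 0, 1.16 and 1.94 on day 4 and 4.37 and 3.07 on day 10. In shScr cells it was 0.678 and 0.663 on day 0, 0.733 and 1.34 on day 4 and 6.62 and 5.63 on day 10. All 4 day 10 libraries were above all 8 earlier ones. Per kb of transcript, HES4 was the most abundant of the targets at day 0, at 141 to 212 in shIL1R cells and 146 to 158 in shScr cells, above HES1 at 24.5 to 25.6 and 34.3 to 45.5 and HEY1 at 15.4 to 18.0 and 16.0 to 20.7. At day 10 HEY1 had 163 to 333 per kb and HES4 had 179 to 216 in shIL1R cells, which overlap, and in shScr cells HEY1, at 238 to 275, was above HES4, at 193 to 196.

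HES4, a HES family gene that mice lack, moved against HES1, being lowest at day 4. HES4 had 221 and 146 normalized counts in shIL1R cells on day 0, 120 and 124 on day 4 and 186 and 225 on day 10. The shScr libraries held 164 and 152 on day 0, 122 and 74.8 on day 4 and 201 and 204 on day 10. All day 4 libraries were below all libraries of days 0 and 10. HES4 rose at day 10 against day 4 by 0.74 ± 0.24 in shIL1R cells and by 1.07 ± 0.24 in shScr cells (SE, limma adjusted p = 0.0346 and 0.00443). At day 4 against day 0 it fell by 0.72 ± 0.24 in shScr cells (SE, limma adjusted p = 0.0358), with −0.55 ± 0.24 in shIL1R cells (0.0888). The day 4 call in shScr cells was lost without any of 5 libraries, both of shScr day 0, both of shScr day 10 and replicate 2 of shScr day 4, which left −0.37 (limma adjusted p = 0.0501 to 0.284). The shIL1R call at day 10 against day 4 was lost without either library of shScr day 0 or shIL1R day 4, or without replicate 2 of shIL1R day 10 (0.0513 to 0.122).

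The 3 remaining targets were scarce. HEYL, the third HEY family gene, had 15.3 and 25.8 normalized counts in shIL1R cells on day 0, 16.6 and 9.97 on day 4 and 8.39 and 5.64 on day 10. With the scramble hairpin the counts were 23.9 and 27.5 on day 0, 31.4 and 9.46 on day 4 and 10.6 and 10.1 on day 10. With 206 reads over all 12 libraries, its day 10 libraries were below its day 0 libraries with either hairpin. HEYL fell by 1.40 ± 0.51 at day 10 against day 0 in shIL1R cells (SE, limma adjusted p = 0.0336), with −1.23 ± 0.51 in shScr cells (0.0542). The shIL1R call was lost without replicate 2 of shIL1R day 0 (0.198) or of shIL1R day 10 (0.124), and the shScr value passed without either library of shScr day 4 or shIL1R day 10 (0.0194 to 0.0482). NRARP had 54 reads in all, 1.84 to 9.44 normalized counts per library, and HEY2 had 3 reads in all, 1 in each of 3 libraries. HEY2 thus had at most 1.18 normalized counts in any library. A fall or a small rise in these 2 genes was not detectable at this depth.

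**Figure D3:**
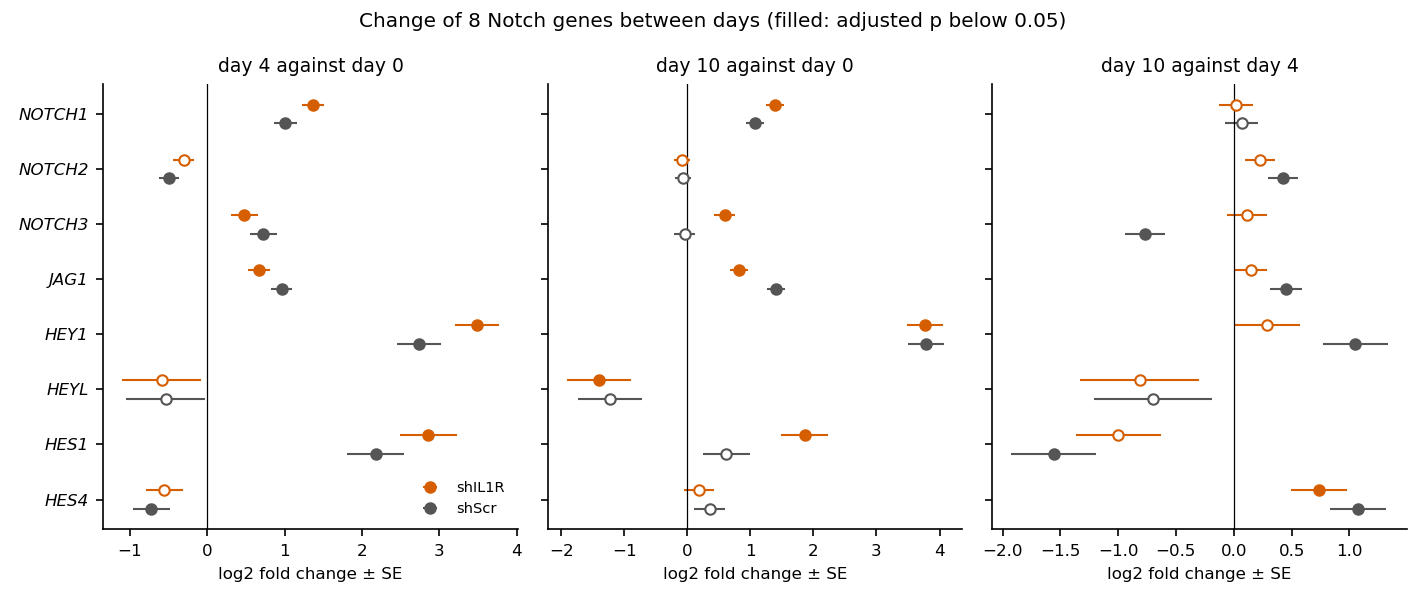
Log2 fold change of the 8 tested genes between days on the log2(normalized count + 1) scale, shIL1R in orange above shScr in grey, with bars of ± 1 SE. Filled points have a limma adjusted p below 0.05. HEY1 lies farthest to the right at day 10 against day 0, at 3.78 with either hairpin, and HEYL farthest to the left, at −1.40 in shIL1R cells and −1.23 in shScr cells.

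Counted by comparison, 5 of the 8 tested genes were called higher and 0 lower at day 4 against day 0 in shIL1R cells, where 40.4% of all tested genes were called, 20.1% higher and 20.3% lower. In shScr cells 5 were higher and 2 lower, with 38.3% of all genes called, 19.4% higher and 18.9% lower. NOTCH1, NOTCH3, JAG1, HEY1 and HES1 rose with either hairpin at that time. For day 10 against day 0, 5 were higher and 1 lower in shIL1R cells, with 60.3% of all genes called, 30% higher and 30.3% lower. In shScr cells 3 were higher and 0 lower, namely NOTCH1, JAG1 and HEY1, with 63.8% of all genes called, 32.5% higher and 31.3% lower. That share of 3 in 8 lies below the share of all genes called. For day 10 against day 4, HES4 alone was called in shIL1R cells, 1 higher and 0 lower, with 35.9% of all genes called, 17.6% higher and 18.3% lower. In shScr cells 4 were higher and 2 lower, with 44.1% of all genes called, 21.7% higher and 22.4% lower. The median log2 fold change of the 8 at day 10 against day 0 was 0.71 in shIL1R cells and 0.49 in shScr cells, where the medians of all tested genes were 0.012 and 0.0057. Since the genes were chosen with earlier results of these data known, these counts and medians are a description only. Without replicate 2 of shIL1R day 10, which stood apart, 5 genes were called at day 10 against day 0 in shIL1R cells, and HEY1 was then up by 4.29, NOTCH1 by 1.55 and JAG1 by 0.98 on the log2 scale.

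Endothelial markers moved in both directions. At day 10 against day 0, 3 of the 6 tested endothelial markers were higher and 1 lower with either hairpin. This share of 66.7% was near that of all tested genes, 60.3% in shIL1R cells and 63.8% in shScr cells. TIE1 had 325 and 199 normalized counts in shIL1R cells at day 10 against 27.8 and 14.6 at day 0, and 539 and 403 in shScr cells at day 10 against 32.2 and 32.5 at day 0. KDR rose by 4.09 in shIL1R cells and by 4.50 in shScr cells, and VWF by 3.08 and 3.15 (limma adjusted p = 0.000216 and 9.13e-05 for KDR and 0.000333 and 0.00024 for VWF). TEK, which fell, made up most of the summed level of all 10 markers, 2068 to 2208 normalized counts in shIL1R cells at day 10 and 2571 to 3318 at day 0, and 1610 to 1944 and 1728 to 1859 in shScr cells. CDH5, which defines endothelial junctions, was at 0 in all 12 libraries, and PECAM1 had 0.861 to 13.2 normalized counts. The part of these markers in the Notch values was not tested. Reads antisense to NOTCH1, JAG1, HEY2 and HEYL, each of which has an overlapping gene on the other strand in GENCODE v29, were not separated here, since the strand setting of the counting is not given.

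Whether depletion of the receptor changed these genes was asked at each day and of the change from day 0. None of the 8 genes was called between shIL1R and shScr cells at day 0, day 4 or day 10 with limma, where 0.0646%, 0.28% and 9.21% of all genes were called. At an unadjusted p under 0.05 there were 1, 2 and 2, and the share of all genes at that threshold was not counted. With edgeR on the recovered reads there were 0 on each day, where it called 0.0646%, 0.309% and 9.32% of all genes. DESeq2 called 0, 0 and 1, where it called 0.977%, 3.37% and 12.2% of all genes. None was called for a difference in the change from day 0 at day 4 or day 10 (0.0287% and 2.41% of all genes). There were 0 and 3 at an unadjusted p under 0.05. With edgeR there were 0 (0.0287% and 2.43% of all genes), and with DESeq2 0 (0.747% and 5.76%).

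The intervals below rest on a spread for each gene that was pooled over all 6 groups. The shIL1R day 10 libraries lay further apart, relative to counting error, than those of any other group. HEY1, for example, had 765 and 375 normalized counts there. For the hairpin comparisons at day 10 the intervals may therefore be too narrow, and they do not bound the differences that remain possible. At day 10 the shIL1R against shScr log2 fold change of NOTCH1 was −0.0024 (95% interval −0.32 to 0.31) and that of HEY1 was −0.14 (−0.76 to 0.49), and the libraries overlapped for both. JAG1 had −0.43 ± 0.14 at day 10, with 683 and 544 normalized counts in shIL1R cells against 722 and 935 in shScr cells (SE, limma adjusted p = 0.0765). It was called by DESeq2 (adjusted p = 0.0496). The limma value was −0.59 without replicate 1 of shIL1R day 10 and −0.62 without replicate 1 of shScr day 10. Without replicate 1 of shIL1R day 10 the JAG1 change from day 0 differed between the hairpins by −0.76, against −0.59 over all libraries (limma adjusted p = 0.14). That setting leaves replicate 2, which stood apart, as the only shIL1R day 10 library. NOTCH3 had −0.51 ± 0.17 at day 4, with 3096 and 2004 normalized counts in shIL1R cells against 4011 and 3146 in shScr cells (SE, limma adjusted p = 0.162), and −0.83 without replicate 1 of shIL1R day 4 (0.0412). HEY1 had 0.63 ± 0.28 at day 4, with 431 and 446 normalized counts in shIL1R cells against 327 and 245 in shScr cells (SE, limma adjusted p = 0.27). NOTCH2 was lower in every shIL1R library than in the shScr libraries at day 0 and day 10, with −0.31 and −0.32 (limma adjusted p = 0.55 and 0.137). HRAS had 37518 and 25280 normalized counts in shIL1R cells at day 10 against 51791 and 50789 in shScr cells (−0.74, limma adjusted p = 0.0257). Its shIL1R against shScr log2 fold change was −0.06 at day 0 and −0.62 at day 4 (limma adjusted p = 0.964 and 0.117). The part of HRAS in these values was not tested.

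**Figure D4:**
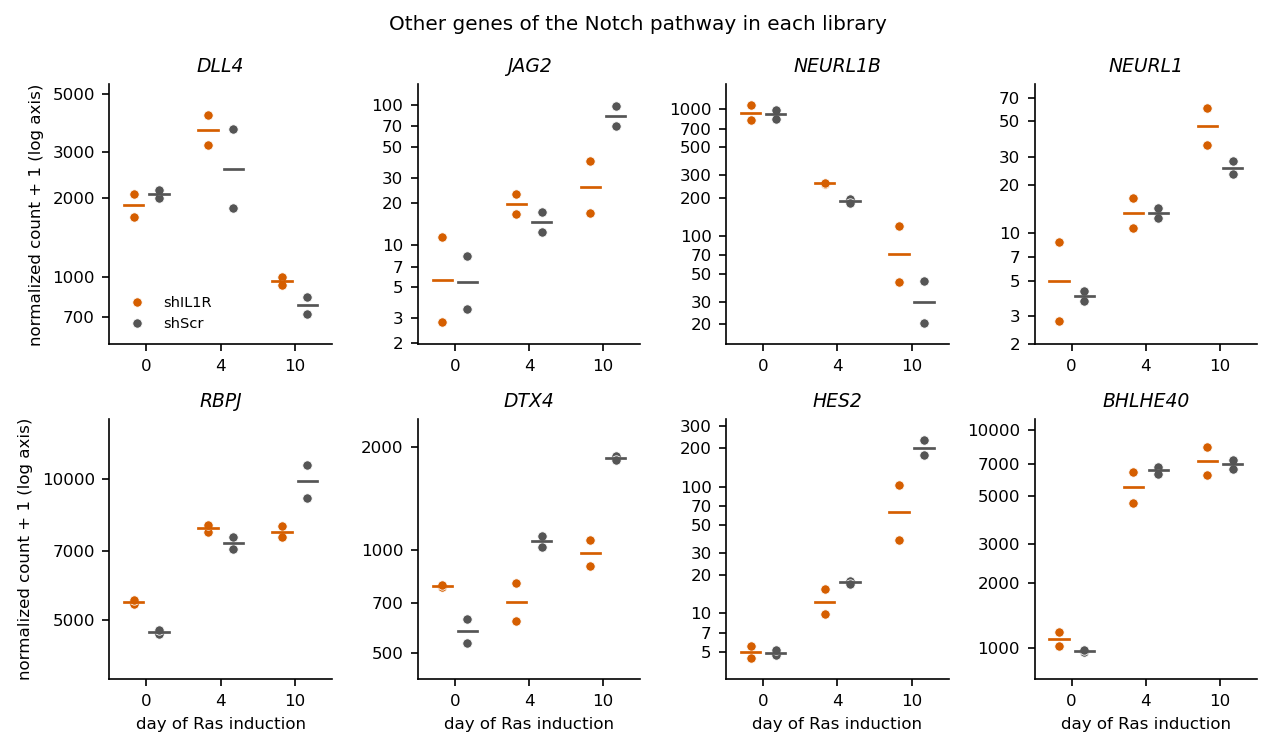
Normalized counts + 1 of other Notch pathway genes on log axes that differ between panels, by day of Ras induction, shIL1R in orange to the left of shScr in grey, with a point for each library and bars at the geometric mean of 2 libraries. DLL4 is lower at day 10 than at day 0 in every library, and HES2 and JAG2 are higher.

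The wider pathway was followed through 69 other genes, of which 61 were tested. At day 10 against day 0, 26 were higher and 11 lower in shIL1R cells, and 34 were higher and 12 lower in shScr cells, with medians of 0.26 and 0.33. These are 60.7% and 75.4% of the list, where 60.3% and 63.8% of all tested genes were called, so in shIL1R cells the share was that of all genes. At day 4 against day 0, 22 were higher and 6 lower in shIL1R cells and 21 higher and 7 lower in shScr cells, 45.9% of the list with either hairpin, where 40.4% and 38.3% of all tested genes were called. Of the other receptor and ligands, NOTCH4 was at 0 in all 12 libraries and DLL1 had 2.50 to 13.3 normalized counts. DLL4, a ligand best known from endothelial tips, had 1696 and 2066 normalized counts in shIL1R cells on day 0, 4135 and 3168 on day 4 and 994 and 933 on day 10. In shScr cells it had 1991 and 2145, 3670 and 1825, and 723 and 838 on the same days. DLL4 fell at day 10 against day 0 by 0.96 ± 0.25 in shIL1R cells and by 1.41 ± 0.25 in shScr cells (SE, limma adjusted p = 0.00693 and 0.000542), opposite to JAG1. The shIL1R call was lost without replicate 2 of shIL1R day 0 (0.0558). JAG2, the other Jagged ligand, was scarce at day 0, at 1.80 to 10.3 normalized counts, and had 38.4 and 15.8 in shIL1R cells and 69.6 and 96.2 in shScr cells at day 10. It rose by 2.19 ± 0.66 in shIL1R cells and by 3.94 ± 0.66 in shScr cells (SE, limma adjusted p = 0.0136 and 0.00032). The shIL1R value was 1.18 without replicate 1 of shIL1R day 0 and 1.58 without replicate 1 of shIL1R day 10, and neither was called (0.147 and 0.0954).

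In the nucleus, RBPJ, through which all Notch receptors act, had 5395 and 5516 normalized counts in shIL1R cells on day 0, 7688 and 7978 on day 4 and 7913 and 7496 on day 10. The matching shScr counts were 4663 and 4753 on day 0, 7091 and 7495 on day 4 and 9111 and 10713 on day 10. RBPJ rose at day 10 against day 0 by 0.50 ± 0.09 in shIL1R cells and by 1.07 ± 0.09 in shScr cells (SE, limma adjusted p = 0.000451 and 1.2e-06). The coactivator MAML3 rose by 1.31 and 1.28 (limma adjusted p = 7.7e-05 and 8e-05), while MAML1 fell by 0.63 in shScr cells (0.00202), with −0.31 in shIL1R cells (0.0727). The counts by role that follow are for day 10 against day 0, where 60.3% of all tested genes were called in shIL1R cells (30% higher, 30.3% lower) and 63.8% in shScr cells (32.5% higher, 31.3% lower). Of the 9 genes of the activator complex 4 were higher and 2 lower in shIL1R cells (66.7% called), and 5 higher and 3 lower in shScr cells (88.9%). Of 12 corepressors 4 were higher and 3 lower in shIL1R cells (58.3%), and 4 higher and 4 lower in shScr cells (66.7%), shares near those of all genes, TLE4 among the fallen with −1.03 in shScr cells.

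The list of other HES family members also holds BHLHE40 and BHLHE41, which are related repressors rather than HES genes. Of its 5 tested genes, 4 rose at day 10 against day 0 with either hairpin (80% called, against 60.3% of all tested genes in shIL1R cells and 63.8% in shScr cells). BHLHE40, a repressor of the same protein class, rose by 2.72 in shIL1R cells and by 2.85 in shScr cells. HES2 had 102 and 37.2 normalized counts in shIL1R cells and 176 and 231 in shScr cells at day 10, against 3.44 to 4.49 at day 0. Of 6 genes for ubiquitination and endocytosis of ligands, the step that lets a ligand pull, 4 were higher and 1 lower in shIL1R cells (83.3%) and 5 higher and 1 lower in shScr cells (100%). The lower one was NEURL1B, a ligase for ligands, with log2 fold changes of −3.71 in shIL1R cells and −4.94 in shScr cells (limma adjusted p = 2.09e-05 and 1.91e-06). Of 9 receptor cleavage genes 4 were higher and 2 lower in shIL1R cells (66.7%) and 6 higher and 1 lower in shScr cells (77.8%).

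Of the other pathway genes, 5 were called between the hairpins at day 10, all lower in shIL1R cells. They are 8.2% of the 61, below the 9.21% called of all tested genes, so the count does not set the pathway apart. At days 0 and 4 there were 0 with limma (0.0646% and 0.28% of all genes). At an unadjusted p under 0.05 there were 8 and 9, and the share of all genes at that threshold was not counted. On those days edgeR called 0 and 0 (0.0646% and 0.309% of all genes) and DESeq2 0 and 2 (0.977% and 3.37%). DTX4, a Deltex protein, had 1066 and 897 normalized counts in shIL1R cells against 1877 and 1824 in shScr cells (−0.92 ± 0.13, SE, limma adjusted p = 0.00397). DNER, a transmembrane protein described as a non-canonical ligand, had 211 and 185 in shIL1R cells against 404 and 506 in shScr cells (−1.19 ± 0.22, SE, limma adjusted p = 0.00984). RBPJ had −0.36 ± 0.09 (0.0278), HES2 −1.69 ± 0.44 (0.0379) and the ligase MIB1, named because it completes the 5, −0.38 ± 0.10 (0.0399). For DTX4, DNER and RBPJ the change from day 0 to day 10 itself differed between the hairpins, by −1.35, −1.59 and −0.57 (limma adjusted p = 0.00782, 0.0263 and 0.0363), where 2.41% of all tested genes were called. For RBPJ that call was lost on leaving out any of 9 libraries, all but replicate 1 of shScr day 10 and the shIL1R day 10 pair (0.0538 to 0.165). For DNER it was lost without either library of shScr day 0, replicate 2 of shIL1R day 0 or replicate 2 of shScr day 10 (0.102 to 0.13), and for DTX4 without replicate 2 of shScr day 0 (0.0521). Fitted on the compared groups alone, 0 of the 5 were called, a setting in which 0.524% of all tested genes were called. The calls between the hairpins also depended on single libraries, and the share of all tested genes called changed from fit to fit as well.

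The genes whose pattern over the 12 libraries lay closest to these were ranked by the root mean square (RMS) difference of log2 values centred on each gene's mean. For NOTCH1, whose own values spanned 1.65 on the log2 scale, they were MAP4K4, KCNG1 and TMEM158, at 0.136 to 0.144. For NOTCH2 they were PRRC2C, NUP98 and MLEC (0.098 to 0.116), for NOTCH3 PCDHGA2, ZEB1 and ZNF227 (0.177 to 0.194) and for JAG1 ZDHHC9, BRWD1 and DUSP3 (0.098 to 0.119). Likeness was looser for HEY1, which spanned 4.40, with KLHL24, MMP1 and CNIH3 at 0.393 to 0.424, and for HES1, which spanned 3.50, with SPRY4, GEM and ELFN1 at 0.413 to 0.473. HES4 was closest to TMEM86A, SLC25A29 and MRAS (0.201 to 0.231).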

How the data were processed

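The members and gene lists were chosen with earlier results of these data known. The deposited values are normalized counts, a signal made by the authors from reads and scaled per library. The tools named in the submitters' processing notes are TopHat, HTSeq and DESeq2 and the build hg19, without versions or roles. The annotation and strand setting are not given in the sources used here. Dividing each value by what 1 read is worth gave whole reads within 0.001 for 100% of values. These reads were used for edgeR 4.0.16 and DESeq2 1.42.0 as alternatives, and 3 reads as a floor.

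The 13924 genes that reached 10 normalized counts in 2 or more libraries were fitted with limma 3.58.1 (R 4.3.3) on log2(value + 1). The model had a mean for each of 6 groups, all 12 libraries entered, and variances were moderated by eBayes with a trend, giving 6 residual degrees of freedom and 4.98 from the prior. Two-sided p-values were adjusted by the Benjamini-Hochberg method within each of 11 contrasts. Libraries of a group differed by more than counting error (chi-square per degree of freedom 8.27 to 57.3). The fit was run on simulated counts with the same dispersion in all genes and groups and with changes placed in genes above the filter. Real groups differ in spread, so that run checks the code and not the calls made here.

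Named were all members, up to 3 called pathway genes per comparison and direction with the largest change, NOTCH4, DLL1, DLL4, JAG2, RBPJ and MAML1 to MAML3 by level, the 3 genes most like each tested member (for HEYL not reported here), and IL1R1. HRAS, the markers and MIB1 are named outside that rule. Lengths and overlaps come from GENCODE v29 and promoters from RefSeq (GRCh38.p14), builds other than hg19, so no position was carried over. Alternatives were another normalization, filter, pseudocount, fit, tool or replicate block, and leaving out each library.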

Additional observations from a re-analysis of the deposited data

Results flagged for a closer look

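NOTCH3 was flagged because all shIL1R libraries lay on one side of the shScr libraries at day 10 and on the other at days 0 and 4. This rule was applied to the 10 genes alone, and the share of all genes that meets it was not counted. Its shIL1R against shScr log2 fold change was −0.26 on day 0, −0.51 on day 4 and 0.37 on day 10. The difference between day 10 and day 0 was 0.63 and missed the threshold (limma adjusted p = 0.19), and that between day 10 and day 4 was not tested.

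JAG1 was higher in every shIL1R library than in the shScr libraries at day 0 and lower in every one at days 4 and 10, with log2 fold changes of 0.16, −0.13 and −0.43. The differences from day 0 were −0.29 at day 4 and −0.59 at day 10 and missed the threshold (limma adjusted p = 0.628 and 0.14).

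HES1 was lower in both shIL1R libraries than in the shScr libraries on day 0 (−0.65), whereas on day 10 both were higher (0.59). The difference between the days, 1.24, missed the threshold (limma adjusted p = 0.228).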

How the results depend on the processing

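None of the values below changed direction. Of the 8 tested members, 3 were called at day 10 against day 0 in shScr cells, and 6 when the compared groups were fitted alone. Of all tested genes, 63.8% and 68% were called in these fits. At day 10 against day 4 in shIL1R cells 1 was called, but 0 without the filter or with the compared groups alone, and 2 with a replicate block, edgeR or DESeq2. The share of all genes called was 35.9% in the main fit, 22.4% without the filter and 13.7% with the compared groups alone. It was 35.7% with the replicate block, 35.8% with edgeR and 34% with DESeq2. Between shIL1R and shScr cells at day 10, DESeq2 called 1, and 12.2% of all tested genes. Of the other pathway genes, 19 were called at day 10 against day 4 in shIL1R cells and 9 with the compared groups alone. The shares of all tested genes were those given above, 35.9% and 13.7%. Between the hairpins at day 10, 5 were called, against 3 without the filter, 2 with a replicate block within each hairpin and 0 with the compared groups alone. The share of all genes called also fell, from 9.21% to 4.86%, 1.95% and 0.524% in the same order. DESeq2 called 2 between the hairpins at day 4 and 1 for the difference in change at day 4. Of all tested genes it called 3.37% and 0.747%. The labels do not say that the replicate numbers pair libraries, and deviations of same-numbered libraries correlated at −0.102 to 0.231, so the block is an alternative only.

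Leaving out each library in turn, the members called ran from 4 to 5 (day 4 against day 0), 5 to 6 (day 10 against day 0) and 0 to 2 (day 10 against day 4) in shIL1R cells, and from 5 to 7, 3 to 4 and 4 to 6 in shScr cells. Between the hairpins they ran from 0 to 0 at day 0 and 0 to 1 at days 4 and 10, and for the differences in change from 0 to 0 at day 4 and 0 to 1 at day 10. The other pathway genes called ran from 17 to 33, 31 to 42 and 15 to 24 in shIL1R cells and from 16 to 33, 36 to 46 and 17 to 30 in shScr cells in the same order. Between the hairpins they ran from 0 to 0 at day 0, 0 to 3 at day 4 and 1 to 15 at day 10, and for the differences in change from 0 to 1 at day 4 and 0 to 9 at day 10. Where a group is left with 1 library, that library is taken to vary like the other groups. The share of all tested genes called also changed from fit to fit in these settings. With a filter of 50 normalized counts HEYL has no value. Depth limits HEY2, NRARP and HEYL.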
